A study of Mus musculus with 2 samples.

Results

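T cells without CD8 transcripts were cells that carried messenger RNA of the CD3 complex and none of the CD8 co-receptor. They numbered 182 of all 4385 cells of 2 libraries from the mouse retina. They were chosen by their own UMIs (unique molecular identifiers, which count transcripts). A cell was selected on at least 2 UMIs of Cd3d, Cd3e and Cd3g together and 0 UMIs of Cd8a and Cd8b1. It also had to hold fewer than 3 UMIs of the gamma-delta T cell genes Trdc, Trdv4, Cd163l1 and Il17a, and fewer than 3 of the B cell genes Cd79a, Cd79b and Ms4a1. Its UMIs of the microglial genes P2ry12, Tmem119, Gpr34, Olfml3, Sparc and Sall1 had to stay below 15 per 10000. Since these genes chose the cells, their levels and the number of cells are a description. The rule left 168 of 3330 cells in the Igfbpl1 library and 14 of 1055 cells in the PBS library.

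The cells came from B6 mice with glaucoma induced by microbeads, a model in which beads in the front of the eye raise its pressure. CD45-positive cells, a sort that takes leukocytes of every lineage, were prepared with a 10x 3' kit. The Igfbpl1 group was glaucomatous mice treated with Igfbpl1, an insulin-like growth factor binding protein-like protein, and the PBS group was glaucomatous mice given PBS. Each group was 1 library pooled from the retinas of 10 mice aged 8 to 10 months, and eyes without glaucoma were not analysed here. Each group being a single library, there was no replicate spread to test against, and the values describe these libraries, not the effect of a treatment. Each interval is an exact 95% interval that covers counting error only.

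The CD3 chains carry the signal of the T cell receptor into the cell. Conventional T cells bear a receptor of an alpha and a beta chain together with CD4, which binds MHC class II, or CD8, which binds MHC class I. CD4 cells include helper cells that secrete cytokines and regulatory cells that restrain other lymphocytes. Some alpha-beta T cells lack both co-receptors or carry natural killer receptors, and naive cells recirculate through lymph nodes and turn on effector genes once they meet antigen. T cells are rare in the undisturbed retina, which lies behind the blood-retina barrier, and have been described in experimental glaucoma.

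The libraries differed in ways that touch these cells. The Igfbpl1 library held 9463631 UMIs and the PBS library 3795008, and they shared 0 cell barcodes. The selected cells had a median of 2410.5 UMIs in the Igfbpl1 library (1055 to 22334) and of 3522.5 in the PBS library (1555 to 4458), or 561889 and 45311 UMIs in all. A count of 0 in the PBS cells therefore allows a level of up to 66.2 CPM (UMIs per 1000000 UMIs of the summed cells), which is 3 UMIs of their total. Xist, transcribed from the inactive X chromosome of females, and the Y-linked genes Uty, Kdm5d, Eif2s3y and Ddx3y were found in different shares of cells. Cells with Y-linked UMIs and no Xist were 26.6% of the cells with a call in the Igfbpl1 library (24.7 to 28.5%) and 66.2% in the PBS library (62.7 to 69.6%). Among the selected cells 107 held only Xist and 1 only Y-linked UMIs in the Igfbpl1 library, against 1 and 7 in the PBS library, so sex and treatment cannot be told apart in any comparison of the libraries.

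The label of these cells was first checked against transcripts that the rule did not use. A UMI of a T cell receptor constant gene (Trac, Trbc1 or Trbc2) was found in 155 of 168 cells of the Igfbpl1 library and in 14 of 14 of the PBS library. Trac, the alpha chain, was found in 92 Igfbpl1 cells (54.8%, 46.9 to 62.4%) and 8 PBS cells (57.1%, 28.9 to 82.3%). Microglia-rule cells, those at or above the microglial limit and with 0 CD3 UMIs, should lack it, and held it in 4 of 1552 cells of the Igfbpl1 library (0.258%) and 0 of 768 of the PBS library, at median depths of 2052.5 and 3547.5 UMIs. The beta constant genes are less particular to T cells in these data: natural killer cells of the Igfbpl1 library, selected on at least 2 UMIs of Ncr1, Klrb1c, Klre1 and Eomes and fewer than 2 of CD3, held 270 CPM of Trbc1 and 288 CPM of Trbc2, but 7.71 CPM of Trac. A receptor transcript was thus found in most of the selected cells of both libraries, and 13 Igfbpl1 cells had none of the 3. Since natural killer cells held the beta genes too, this count does not set T cells apart from them. A UMI of the natural killer receptor genes Klrb1c, Ncr1 or Klrk1 was found in 70 of 168 Igfbpl1 cells and 3 of 14 PBS cells.

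Cd4 itself was seldom found. It gave 18 UMIs in 18 of 168 cells of the Igfbpl1 library (10.7%, 6.47 to 16.4%) and 1 UMI in 1 of 14 cells of the PBS library (7.14%, 0.181 to 33.9%). CD8 T cells, selected by the same rule with at least 1 CD8 UMI, held Cd4 in 2 of 66 cells of the Igfbpl1 library (3.03%, 0.369 to 10.5%) and 1 of 15 of the PBS library (6.67%, 0.169 to 31.9%), with median depths of 2598 and 4311 UMIs. Microglia-rule cells had it in 0 of 1552 cells of the Igfbpl1 library (a count of 0 leaves room for 0.193%) and in 2 of 768 cells of the PBS library (0.260%). Zbtb7b, the transcription factor that sets the CD4 fate, gave 10 UMIs in 10 Igfbpl1 cells and 0 UMIs in the PBS cells. The selected cells are therefore not called CD4 T cells here. An absent CD8 transcript may likewise depend on depth. After every cell was thinned to 1000 UMIs, CD8 T cells numbered 34 in the Igfbpl1 library and 4 in the PBS library, against 66 and 15 as deposited. The selected cells then numbered 134 and 16, against 168 and 14. The whole rule was applied again to the thinned counts, so cells also left by the CD3 limit and these numbers do not measure the loss of CD8 alone.

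Cells on either side of each limit of the rule were counted. In the Igfbpl1 library 25 selected cells held exactly 2 CD3 UMIs, of which 24 had a receptor constant gene, and 44 cells lay just outside with 1 CD3 UMI, of which 21 had one. In the PBS library 0 selected cells held 2 CD3 UMIs and 2 cells lay just outside with 1. A single CD8 UMI kept out 23 Igfbpl1 cells and 5 PBS cells, and 2 or more kept out 43 and 10. Gamma-delta genes at 1 or 2 UMIs were present in 15 and 4 selected Igfbpl1 cells, at 3 UMIs kept out 4 and at 4 or more kept out 65, while in the PBS library all these counts were 0. Trdc, Cd163l1, Trdv4 and Il17a are listed for the Igfbpl1 library only, so the count of gamma-delta T cells in the PBS library has no such genes to rest on.

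The selected cells made up 5.05% of the Igfbpl1 library (168 of 3330, 4.33 to 5.84%) and 1.33% of the PBS library (14 of 1055, 0.727 to 2.22%), and the intervals did not overlap. After thinning to 1000 UMIs the shares were 4.02% and 1.52%, and among cells with at least 2000 UMIs 5.09% and 1.40%. Of the cells outside the microglia rule they were 9.65% (8.30 to 11.1%) and 4.93% (2.72 to 8.13%). CD8 T cells made up 1.98% of the Igfbpl1 library (1.54 to 2.51%) and 1.42% of the PBS library (0.798 to 2.33%), with overlapping intervals. After thinning to 1000 UMIs the CD8 T cells made up 1.02% (0.708 to 1.42%) and 0.379% (0.103 to 0.968%), and these intervals overlap too. The contrast between the selected cells and CD8 T cells thus depends on depth, and it was not tested. Natural killer cells were 154 cells of the Igfbpl1 library (4.62%, 3.94 to 5.39%) and 3 of the PBS library (0.284%, 0.0587 to 0.829%), and gamma-delta T cells were 69 (2.07%) and 0. Of all cells with at least 2 CD3 UMIs, the selected cells were 53.0% (168 of 317, 47.3 to 58.6%) and 46.7% (14 of 30, 28.3 to 65.7%), which overlap.

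**Figure D1:**
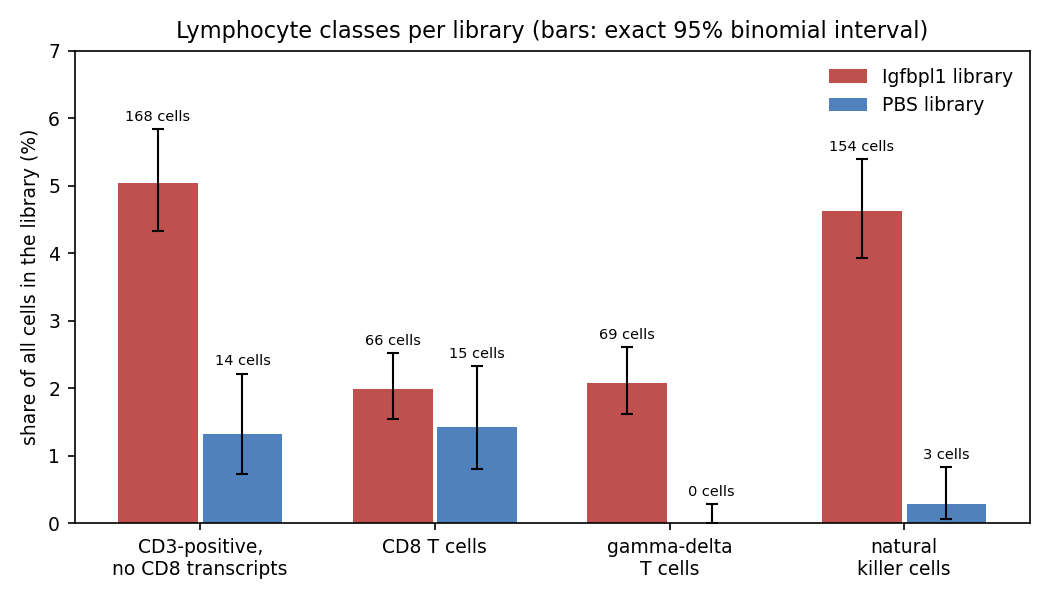
Share of all cells (%) held by the selected cells, CD8 T cells, gamma-delta T cells and natural killer cells in the Igfbpl1 library (red, left of each pair) and the PBS library (blue), with exact 95% binomial intervals and the number of cells above each bar. The selected cells stand at 5.05% and 1.33%, while the intervals of the CD8 T cells overlap. Shares are as deposited, and those of CD8 T cells were 1.02% and 0.379% after thinning to 1000 UMIs. The gamma-delta genes are listed for the Igfbpl1 library only.

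The share was also taken within cells called by their sex-linked transcripts. Among cells with only Xist UMIs the selected cells were 6.92% of the Igfbpl1 library (107 of 1547, 5.70 to 8.30%) and 0.4% of the PBS library (1 of 250, 0.0101 to 2.21%). Among cells with only Y-linked UMIs they were 0.179% (1 of 560, 0.00452 to 0.991%) and 1.43% (7 of 490, 0.576 to 2.92%), and these intervals overlap. Nearly all selected Igfbpl1 cells with a call were thus Xist cells, while the CD8 T cells of that library counted 49 Xist-only and 6 Y-only cells and its microglia-rule cells 541 and 425.

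The next comparison asks how transcripts of the selected cells differed between the libraries. UMIs were summed over the cells of a library and given as CPM of that sum. A gene was measured when it averaged at least 200 CPM over both libraries with at least 20 UMIs, and called when the ratio was at least 2-fold with 50 CPM added to both. Of 592 genes, 52 (8.78%) were called higher in the Igfbpl1 cells and 26 (4.39%) lower, and the median log2 ratio was -0.04. Because the PBS sum rests on 14 cells, the number of cells that hold a gene is given with its level. Fewer cells of a kind and less RNA per cell cannot be told apart in such sums. Cells with many UMIs also weigh more in them. No gene set was tested, and the counts of a list are read beside the shares of all genes. A gene that reached the minimum only through the library where it was high had to differ, so counts among measured genes are a description and support nothing.

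Several genes of naive T cells were lower in the Igfbpl1 cells. The whole list of 16 naive and central memory genes summed to 3036 CPM in the Igfbpl1 cells, against 6775 CPM in the PBS cells. Of its 9 measured genes 3 were lower and 0 higher, where 4.39% of all genes were lower. Lef1 and S1pr1, 2 of these 3, were below 200 CPM in the Igfbpl1 cells, so they reached the minimum through the PBS cells. Lef1, a transcription factor of naive T cells, had 158 CPM (127 to 195) in 54 of 168 Igfbpl1 cells, against 772 CPM (538 to 1074) in 9 of 14 PBS cells, a ratio of 0.205 (0.137 to 0.312). S1pr1, the receptor that lets T cells leave lymph nodes, had 67.6 CPM in 30 Igfbpl1 cells, against 397 CPM in 9 PBS cells, a ratio of 0.170 (0.0948 to 0.317). With every cell thinned to 1000 UMIs its log2 ratio was 1.48, on the other side of 0. That value comes from a single draw that left the PBS cells 14000 UMIs in all, so it is no reversal beyond counting error. Satb1, a chromatin organiser of T cells, had 222 CPM in 68 Igfbpl1 cells, against 552 CPM in 9 PBS cells.

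The other genes of that list fell short of the call or were too low to be measured. Tcf7, a partner of Lef1, had 130 CPM in 44 Igfbpl1 cells, against 309 CPM in 6 PBS cells, and a log2 ratio of -0.997, just short of 2-fold. Klf2, which drives S1pr1, had 836 CPM in 125 Igfbpl1 cells, against 1589 CPM in 13 PBS cells (log2 ratio -0.89). Il7r, the receptor for interleukin-7, had 352 CPM in 96 Igfbpl1 cells, against 706 CPM in 10 PBS cells (-0.91). Ccr7, a chemokine receptor that guides T cells into lymph nodes, was below the minimum level and had 42.7 CPM in 16 Igfbpl1 cells and 44.1 CPM in 2 PBS cells. The naive genes above were thus lower by different amounts, while the level of Ccr7 rests on 2 UMIs in the PBS cells.

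Several signalling genes of the T cell receptor were also lower, as were the beta chain and the zeta chain of the receptor complex. The whole list of 18 signalling and costimulation genes summed to 4182 CPM in the Igfbpl1 cells, against 5981 CPM in the PBS cells. Of its 9 measured genes 3 were lower and 0 higher, where 4.39% of all genes were lower. These 3 were below 200 CPM in the Igfbpl1 cells, so they reached the minimum through the PBS cells. Prkcq, a kinase below the receptor, had 157 CPM in 59 Igfbpl1 cells, against 574 CPM in 11 PBS cells. Themis, which tunes receptor signals, had 160 CPM in 47 Igfbpl1 cells, against 463 CPM in 9 PBS cells. Cd28, the costimulatory receptor, had 109 CPM in 40 Igfbpl1 cells, against 331 CPM in 10 PBS cells. Their ratios were 0.273 (0.175 to 0.441), 0.346 (0.213 to 0.585) and 0.328 (0.184 to 0.621). Skap1 and Fyb, adaptors of the same pathway, were within 2-fold, with log2 ratios of -0.47 and -0.48.

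All 7 genes of the receptor and CD3 list were measured, and 3 were lower, where 4.39% of all genes were. Of these 3, Cd247 reached the minimum through the PBS cells. Trbc2 had 763 CPM in 134 Igfbpl1 cells, against 1721 CPM in 14 PBS cells, and Trbc1 had 297 CPM in 65 Igfbpl1 cells, against 750 CPM in 7 PBS cells. These 2 beta constant genes are near-identical copies, so their reads may be split between them. Cd247, the zeta chain, had 171 CPM in 66 Igfbpl1 cells, against 397 CPM in 10 PBS cells. Trac had 347 CPM and 265 CPM, a ratio of 1.31 (0.733 to 2.58) that does not differ from 1 beyond counting error. Cd3d and Cd3g, which the rule used, had log2 ratios of -0.49 and -0.46.

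Other named genes that were lower take part among others in quiescence and adhesion. Tsc22d3, a target of glucocorticoids and of FOXO factors, had 83.6 CPM in 40 Igfbpl1 cells, against 375 CPM in 8 PBS cells. Klf3, a repressor of the Klf family, had 78.3 CPM in 34 Igfbpl1 cells, against 331 CPM in 10 PBS cells. Itga4, the alpha-4 integrin that lets lymphocytes cross endothelium, had 201 CPM in 66 Igfbpl1 cells, against 530 CPM in 8 PBS cells. Crlf3, Clint1, Grap2 and Mir142hg, with log2 ratios of -1.44 to -1.32, complete the 12 most lowered genes. Igf1r, the receptor for insulin-like growth factor 1, gave 11 UMIs in 10 Igfbpl1 cells and 0 in the PBS cells, and Igfbpl1 was listed in neither library.

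**Figure D2:**
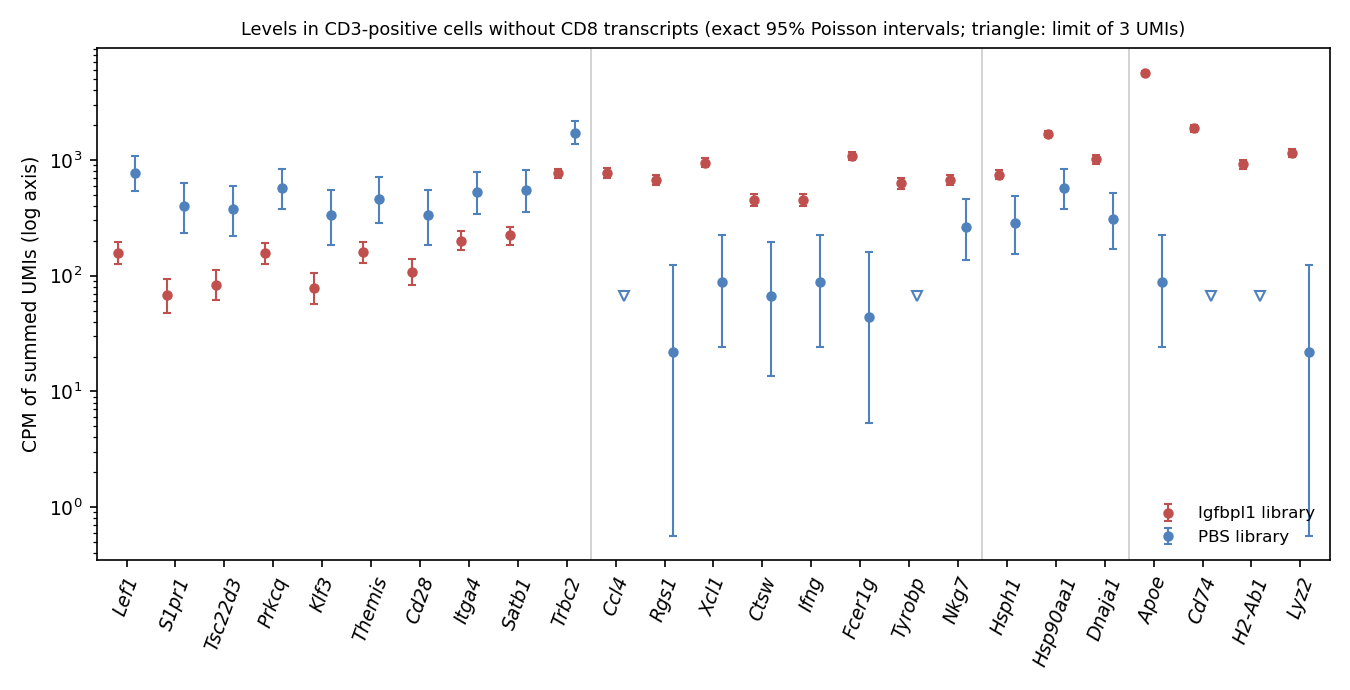
Level in CPM of the summed UMIs (log axis) of genes in the selected cells of the Igfbpl1 library (red) and the PBS library (blue), with exact 95% Poisson intervals; an open triangle marks the limit of 3 UMIs where the PBS cells held none. From left to right stand naive, signalling and receptor genes, effector genes, heat shock genes and genes of myeloid cells; Lef1 reads 158 and 772 CPM, and Xcl1 947 and 88.3 CPM.

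Several cytotoxic genes were higher in the Igfbpl1 cells. The whole list of 20 cytotoxic and natural killer genes summed to 4711 CPM in the Igfbpl1 cells, against 1015 CPM in the PBS cells. Of these genes 5 were measured and called higher, where 8.78% of all genes were higher. Ctsw, Fcer1g and Tyrobp reached the minimum through the Igfbpl1 cells. Nkg7, a protein of cytotoxic granules, had 669 CPM in 94 of 168 Igfbpl1 cells, against 265 CPM in 3 of 14 PBS cells, a ratio of 2.53 (1.43 to 4.93). Ctsw, a cysteine protease of cytotoxic lymphocytes, had 450 CPM in 113 Igfbpl1 cells, against 66.2 CPM, from 3 UMIs of 1 cell, in the PBS cells (ratio 6.80, 2.30 to 33.2). Klrd1, the CD94 subunit of natural killer receptors, had 767 CPM in 102 Igfbpl1 cells, against 309 CPM in 3 PBS cells. Each of these transcripts was thus found in 94 to 113 of 168 Igfbpl1 cells and in 1 to 3 of 14 PBS cells.

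Fcer1g and Tyrobp, signalling adaptors, were the other genes called, and both are also abundant in myeloid cells. Fcer1g had 1091 CPM in 88 Igfbpl1 cells, against 2 UMIs in 2 PBS cells (ratio 24.7, 6.81 to 205). Tyrobp had 630 CPM in 72 Igfbpl1 cells, against 0 UMIs in the PBS cells, which is at least 9.52-fold higher. Microglia-rule cells of the Igfbpl1 library held 2808 CPM of Fcer1g and 2820 CPM of Tyrobp, while they held 10.8 CPM of Nkg7. Granzymes, the proteases of killing, were found in few cells. Gzmb had 203 CPM in 28 Igfbpl1 cells and is listed for that library only. Gzma had 81.9 CPM in 11 Igfbpl1 cells and 0 UMIs in the PBS cells, and Gzmk had 17.8 CPM in 6 Igfbpl1 cells.

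Cytokines and chemokines of type 1 cells followed. Ifng, interferon-gamma, had 450 CPM in 62 Igfbpl1 cells (36.9%, 29.6 to 44.7%), against 88.3 CPM from 4 UMIs of 1 PBS cell (7.14%, 0.181 to 33.9%), a ratio of 5.10 (1.97 to 18.9). Microglia-rule cells held Ifng in 8 of 1552 and 0 of 768 cells. Xcl1, the chemokine for cross-presenting dendritic cells, had 947 CPM in 81 Igfbpl1 cells, against 88.3 CPM in 2 PBS cells, a ratio of 10.7 (4.16 to 39.5). Ccl4, a chemokine of activated lymphocytes and myeloid cells, had 772 CPM in 66 Igfbpl1 cells, against 0 UMIs in the PBS cells, which is at least 11.7-fold higher. Microglia-rule cells of the Igfbpl1 library held 8316 CPM of Ccl4, and Xcl1 in 15 of 1552 cells.

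Ccl5, a chemokine of effector and memory T cells, shows why the number of cells matters. Its level was 4326 CPM in the Igfbpl1 cells and 3553 CPM in the PBS cells (ratio 1.22, 1.04 to 1.44), but it was found in 117 of 168 Igfbpl1 cells and 3 of 14 PBS cells. In the type 1 list of 12 genes 4 were measured and 3 called higher, namely Ifng, Nkg7 and Ly6c2, where 8.78% of all genes were higher. Ifng reached the minimum through the Igfbpl1 cells. Ly6c2 stood at 726 CPM in 91 Igfbpl1 cells, against 331 CPM in 3 PBS cells. Tbx21, the master factor of type 1 cells, was near the floor at 42.7 and 44.1 CPM. Rgs1, a brake on chemokine signals in tissue lymphocytes, had 671 CPM in 95 Igfbpl1 cells, against 1 UMI in the PBS cells (ratio 30.4, 5.42 to 1204). It was also present in 769 of 1552 microglia-rule cells of the Igfbpl1 library and 280 of 768 of the PBS library. Cxcr6 and Cd69, of tissue-resident cells, were too low to be measured, with 112 and 253 CPM in the Igfbpl1 cells, against 22.1 and 132 CPM in the PBS cells. Of the lists for CD4 helper, type 2, type 17 and follicular helper cells, 0 genes reached the minimum level, and their summed levels were 616, 149, 447 and 495 CPM in the Igfbpl1 cells, against 486, 66.2, 22.1 and 596 CPM in the PBS cells. Of the regulatory T cell list 1 gene, Ikzf2, was measured, at 448 CPM in 80 Igfbpl1 cells, against 221 CPM in 4 PBS cells, within 2-fold.

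Some heat shock genes were higher in the Igfbpl1 cells. Of 11 heat shock genes measured 3 were higher and 0 lower, and their median log2 ratio was 0.75, where 8.78% of all genes were higher and the median was -0.04. Dnaja1 had 1009 CPM in 141 Igfbpl1 cells, against 309 CPM in 8 PBS cells, Hsp90aa1 1668 and 574 CPM, and Hsph1 747 and 287 CPM. Hspa1a and Hspa1b, near-identical copies whose reads may be split, had log2 ratios of 0.70 and -0.20, within 2-fold. These chaperones refold proteins and are induced by cell stress. Of 12 immediate early genes measured 1, Atf3, was higher, at 486 CPM in 58 Igfbpl1 cells, against 2 UMIs in the PBS cells (ratio 11.01, 3.02 to 91.4), a share of the list near that of all genes, and the list's median was -0.06. Of 7 genes of MHC class I presentation 0 were called in either direction (median 0.13), and of 3 interferon response genes 1 was higher, Ifi27l2a, at 2068 CPM in 109 Igfbpl1 cells, against 750 CPM in 10 PBS cells. Of 5 survival genes 1 was higher, Bcl2, at 416 CPM in 84 Igfbpl1 cells, against 154 CPM in 5 PBS cells. Bcl2 and Atf3 reached the minimum through the Igfbpl1 cells.

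The genes with the largest ratios belong to other cell types. Apoe, a lipid carrier of macrophages and glia, had 5659 CPM in 93 Igfbpl1 cells, against 88.3 CPM in 4 PBS cells (ratio 64.1, 25.01 to 235). Cd74, H2-Aa, H2-Ab1 and H2-Eb1, of MHC class II presentation, had 751 to 1870 CPM in 34 to 50 Igfbpl1 cells, and 0 UMIs in the PBS cells, which is at least 11.3-fold to 28.3-fold higher. Lyz2, lysozyme of myeloid cells, had 1153 CPM in 28 Igfbpl1 cells, against 1 UMI in the PBS cells (ratio 52.3, 9.35 to 2067). These are markers of myeloid cells and antigen-presenting cells rather than of T cells. The summed level of 11 monocyte and macrophage markers was 7767 CPM in the Igfbpl1 cells, against 243 CPM in the PBS cells, where 6 of the 11 were at 0. That of 12 dendritic cell markers was 4572 CPM, against 44.1 CPM with 11 of 12 at 0, and that of 15 microglial markers 1908 CPM, against 640 CPM with 7 of 15 at 0. B cell markers summed to 135 CPM and 221 CPM, with 1 of 10 and 9 of 10 at 0.

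Myeloid transcripts were concentrated in a minority of the Igfbpl1 cells. UMIs of Lyz2, Cd74, Apoe, C1qa, C1qb, C1qc, H2-Aa, H2-Ab1 and H2-Eb1 were counted as myeloid. At least 20 such UMIs per 10000 were held by 32 Igfbpl1 cells and 0 PBS cells, and the medians were 8.496 and 1.12. When the cells were limited to those with a receptor constant gene and fewer than 20 myeloid UMIs per 10000, 126 Igfbpl1 and 14 PBS cells remained, a limit set after the values were seen. Then 39 genes were higher, 34 of them among the 52, and 22 lower, 21 of them among the 26. The log2 ratio of Lyz2 was -0.02 and that of Apoe 1.18. Those of Xcl1, Ifng and Nkg7 were 3.16, 2.05 and 1.43, those of Fcer1g and Tyrobp 2.94 and 2.79, and that of Lef1 -1.87. Since Apoe and Lyz2 are among the genes of this limit, their smaller ratios follow from it and are no comparison with the other genes.

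The selected cells were then divided among themselves by clustering, over both libraries and without receptor segments, sex-linked, heat shock and early response genes. Clusters were formed from the genes given here, so their levels are a description. The clustering gave 7 clusters of 9 to 47 cells. Of the 14 PBS cells 11 lay in 1 cluster, 2 in another and 1 in another, while the 168 Igfbpl1 cells were spread over all 7.

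The naive-like cluster held 31 Igfbpl1 cells (18.5%, 12.9 to 25.2%) and 11 PBS cells (78.6%, 49.2 to 95.3%). It had 9 of 16 naive and central memory genes raised, which here and for every cluster means 2-fold or more above what the other clusters had at their median, after 50 CPM was added. Lef1 reached 618 CPM in 22 of its 42 cells, and Bcl11b, a factor that fixes T cell identity, 329 CPM in 16. Il7r had 738 CPM in 29. Of the 19 selected cells with Cd4, 9 lay in this cluster and 1 to 3 in each of the others. Apoe, at 1097 CPM in 20 cells, also stood among its leading genes, and 70 of its 110 UMIs came from 1 cell.

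Within the naive-like cluster the libraries still differed. Lef1 had 412 CPM (271 to 599) in 13 of 31 Igfbpl1 cells, against 1008 CPM (702 to 1402) in 9 of 11 PBS cells, a ratio of 0.409 (0.238 to 0.695). Il7r, Klf2 and Tcf7 did not differ beyond counting error, with ratios of 0.922 (0.563 to 1.54), 0.859 (0.603 to 1.23) and 0.896 (0.432 to 1.94). Rgs1 had 473 CPM in 13 Igfbpl1 cells and 0 UMIs in the PBS cells, where 3 UMIs would be 86.4 CPM. Xcl1 had 961 CPM in 8 Igfbpl1 cells, against 2 UMIs of 1 PBS cell (ratio 16.7, 4.43 to 141). Ccl5 had 3950 CPM in 14 Igfbpl1 cells, against 1555 CPM in 1 PBS cell. Ly6c2, Klrd1 and Ifng were found in 11, 10 and 6 Igfbpl1 cells and in 1, 1 and 0 PBS cells. Part of the Igfbpl1 cells under the naive-like name thus held effector transcripts, so the differences are not read as changes within naive cells. Hsp90aa1, a chaperone, had 1205 CPM in 26 Igfbpl1 cells, against 461 CPM in 8 PBS cells. Ikzf2, the Helios factor, had 580 CPM in 11 Igfbpl1 cells, against 1 UMI in the PBS cells (ratio 20.1, 3.40 to 816). Myeloid transcripts differed alongside: Apoe had 1647 CPM in 18 Igfbpl1 cells, against 2 UMIs in the PBS cells (ratio 28.6, 7.73 to 239). Lyz2 gave 25 UMIs against 1, Fcer1g 27 against 1, and Tyrobp, Cd74 and H2-Eb1 gave 19, 15 and 17 UMIs against 0. Their part in the differences above was not tested. Sex followed the library within the cluster, with Xist in 16 of 31 Igfbpl1 cells and 1 of 11 PBS cells, and Ddx3y and Eif2s3y in 0 Igfbpl1 cells and in 2 and 3 PBS cells, so sex and treatment cannot be told apart here either.

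A regulatory T-like cluster held 27 Igfbpl1 cells (16.1%, 10.9 to 22.5%) and 1 PBS cell (7.14%, 0.181 to 33.9%), and these intervals overlap. Of the 15 regulatory genes listed 11 were raised there. Also raised were 4 of 12 type 17 genes, Rora, Maf, Tmem176a and Tmem176b. So were 3 of 7 type 2 genes (Il1rl1, Areg and Il17rb) and 3 of 8 innate lymphoid markers (Rora, Il1rl1 and Areg). The name follows the list with the most genes raised and is not a call for each cell. Tnfrsf4, the OX40 costimulatory receptor, had 1191 CPM in 17 of 28 cells, Izumo1r, folate receptor 4, 378 CPM in 12, Il2ra, the interleukin-2 receptor alpha chain, 294 CPM in 8, and Ctla4, the coinhibitory receptor, 449 CPM in 10. Ikzf2 had 967 CPM in 20 cells. Foxp3, the factor that defines regulatory T cells, gave 12 UMIs in 6 cells, all in the Igfbpl1 library, the one library that lists it, and 5 of these cells lay in this cluster. All 6 held Ikzf2, 4 held Il2ra, 3 held Ctla4, and 0 held Cd4. Areg, a repair growth factor, gave 29 UMIs in 5 cells of the cluster, 15 of them in 1 cell, and Il10 gave 10 UMIs in 4 cells.

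Both clusters led by killer-cell genes held mostly Igfbpl1 cells, but so did the selected cells as a whole, at 168 of 182. The Ctla2a-led cluster held 45 Igfbpl1 cells (26.8%, 20.3 to 34.2%) and 2 PBS cells (14.3%, 1.78 to 42.8%), and these intervals overlap. It had 8 of 20 cytotoxic and natural killer genes raised. It was the least stable cluster under other settings, with at most 20 of its 47 cells kept together at resolution 1.2 and 25 with 10 components. Klrd1 had 1554 CPM in 43 of 47 cells, Nkg7 1294 CPM in 38 and Ctla2a, a cathepsin inhibitor, 2197 CPM in 41. The Klra7-led cluster held 30 Igfbpl1 cells (17.9%, 12.4 to 24.5%) and 0 PBS cells, where 0 of 14 leaves room for 21.4%. Of the 20 genes 13 were raised there, among them the natural killer receptor genes Klrb1c (241 CPM in 15 cells) and Klre1 (344 CPM in 15). Xcl1 reached 2605 CPM in 26 of its cells, Ifng 1171 CPM in 16 and Fcer1g 1882 CPM in 26. Trac was found in 24 of 47 cells of the Ctla2a-led cluster and in 12 of 30 of the Klra7-led cluster. Of 11 natural killer cell markers 8 were raised in the Klra7-led cluster and 3 in the Ctla2a-led one. The Klra7-led cluster held 252 CPM of Gzma, with 16 of 22 UMIs in 1 cell. All selected Igfbpl1 cells together held 80.1 CPM of Klrb1c and 81.9 CPM of Gzma. Natural killer cells, which were chosen by Klrb1c among others, held 445 and 3333 CPM.

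**Figure D3:**
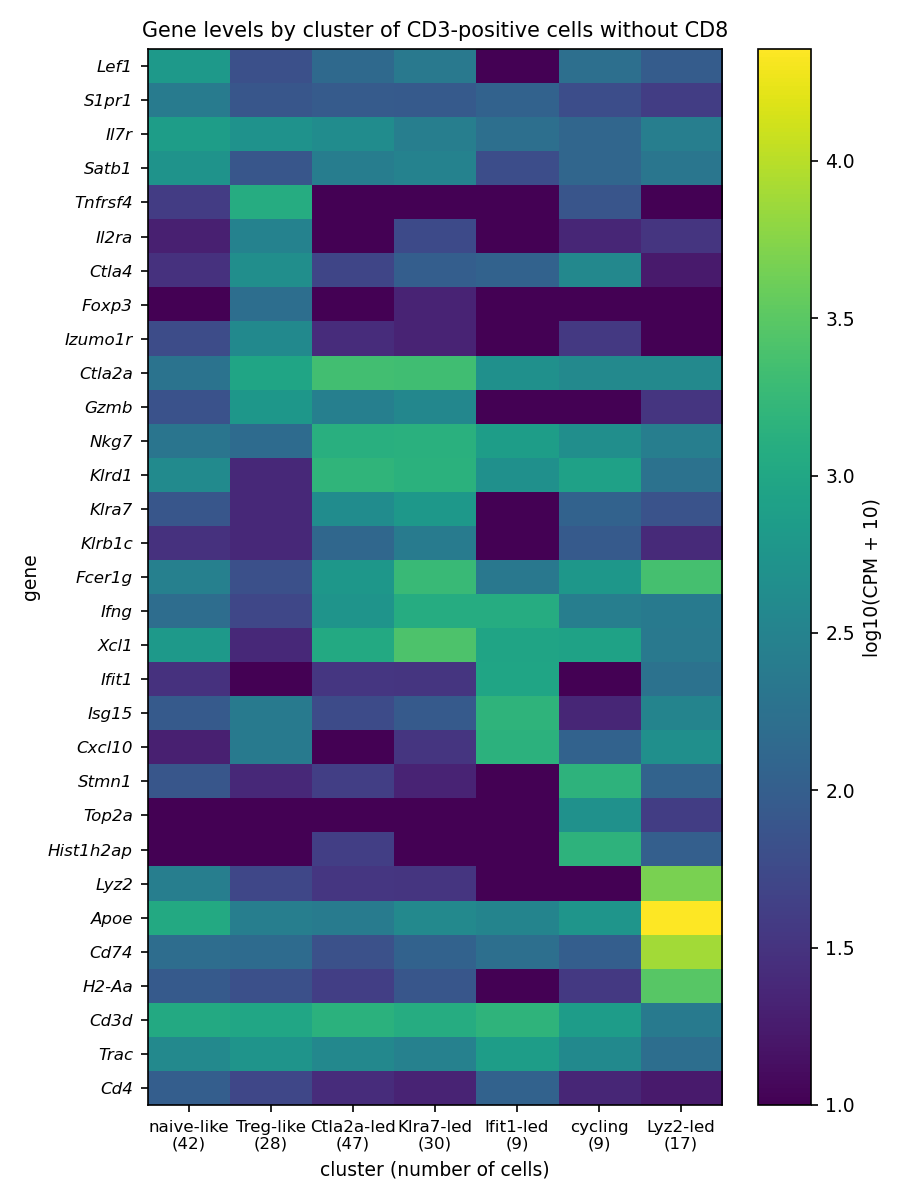
Level of 31 genes (rows) in the 7 clusters of the selected cells of both libraries (columns, with the number of cells), as log10 of CPM with 10 added. Lef1 and Il7r are brightest in the naive-like cluster, Tnfrsf4 in the regulatory T-like (Treg-like) one, Xcl1 in the Klra7-led one, Ifit1 and Isg15 in the Ifit1-led one, Top2a in the cycling one, and Lyz2 and Apoe in the Lyz2-led one.

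The remaining clusters were small and held Igfbpl1 cells alone, though 0 of 14 PBS cells leaves room for a share of 21.4%. A cycling cluster of 9 cells, with a median of 8637 UMIs, had 12 of 16 cell cycle genes raised, with Top2a, the topoisomerase of dividing cells, at 486 CPM in 7 cells and Stmn1 at 1457 CPM in 8. The Lyz2-led cluster of 17 cells had all 11 monocyte and macrophage markers raised and a median of 7361 UMIs, with Apoe at 22631 CPM and Cd74 at 7682 CPM. A receptor constant gene was found in 16 of these 17 cells, and the cluster was given no cell type name. The Lyz2-led and cycling clusters held 130176 and 76196 of the 561889 UMIs summed for the Igfbpl1 cells. These few cells thus weigh heavily in the summed levels above. Outside the Lyz2-led cluster 38 genes were higher and 22 lower in the Igfbpl1 cells than in the PBS cells. An Ifit1-led cluster of 9 cells held interferon-induced genes, and Trac in 7 of them.

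The Ifit1-led cluster was led by Ifit1 (939 CPM in 7 of 9 cells), Cxcl10 (1409 CPM in 4, with 23 of 27 UMIs in 1 cell), Isg15 (1513 CPM in 8), Slfn5 (731 CPM in 6) and Gbp2 (470 CPM in 5). Type I interferon acts through a factor complex that binds the interferon-stimulated response element upstream of its target genes. The 250 bases before the start of each of its 10 leading genes, which matched RefSeq promoters by symbol for 10 of 10, were searched on both strands for that element's core, GAAA with NN between it and a further GAAA, and no other motif was searched. It was found for 6 genes, Ifit1, Cxcl10, Isg15, Slfn5, Gbp2 and Ifit3, against 3.46% of all genes (936 of 27025), or 2.98% of all promoters of the same length (978 of 32851). The last 150 bases before the start are shown for 4 genes, because they carry the matches, in capitals, nearest the start (RefSeq, GRCm38.p6, written along each gene's strand, where TTTC is the core on the opposite strand).
Ifit1 (chr19:34640739-34640888, plus strand): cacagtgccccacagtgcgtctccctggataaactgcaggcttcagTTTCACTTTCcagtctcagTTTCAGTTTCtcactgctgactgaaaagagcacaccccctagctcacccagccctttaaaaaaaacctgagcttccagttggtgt
Isg15 (chr4:156200819-156200968, minus strand): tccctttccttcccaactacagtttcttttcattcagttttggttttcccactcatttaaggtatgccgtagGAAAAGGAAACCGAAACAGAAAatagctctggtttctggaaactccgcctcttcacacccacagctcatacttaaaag
Gbp2 (chr3:142620513-142620662, plus strand): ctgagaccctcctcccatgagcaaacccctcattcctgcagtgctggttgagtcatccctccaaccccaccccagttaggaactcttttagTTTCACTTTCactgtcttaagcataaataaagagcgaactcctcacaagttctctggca
Ifit3 (chr19:34583379-34583528, plus strand): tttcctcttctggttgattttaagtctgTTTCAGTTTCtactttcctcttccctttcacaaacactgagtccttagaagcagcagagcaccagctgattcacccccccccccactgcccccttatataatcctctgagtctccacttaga
Ifit1 has 2 matches and Isg15 has 3, which overlap, while Gbp2 and Ifit3 have 1 each; those of Cxcl10 and Slfn5 lie farther from the start than the bases shown. A match is a description of the letters and does not show that the element is used in these cells.

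**Figure D4:**
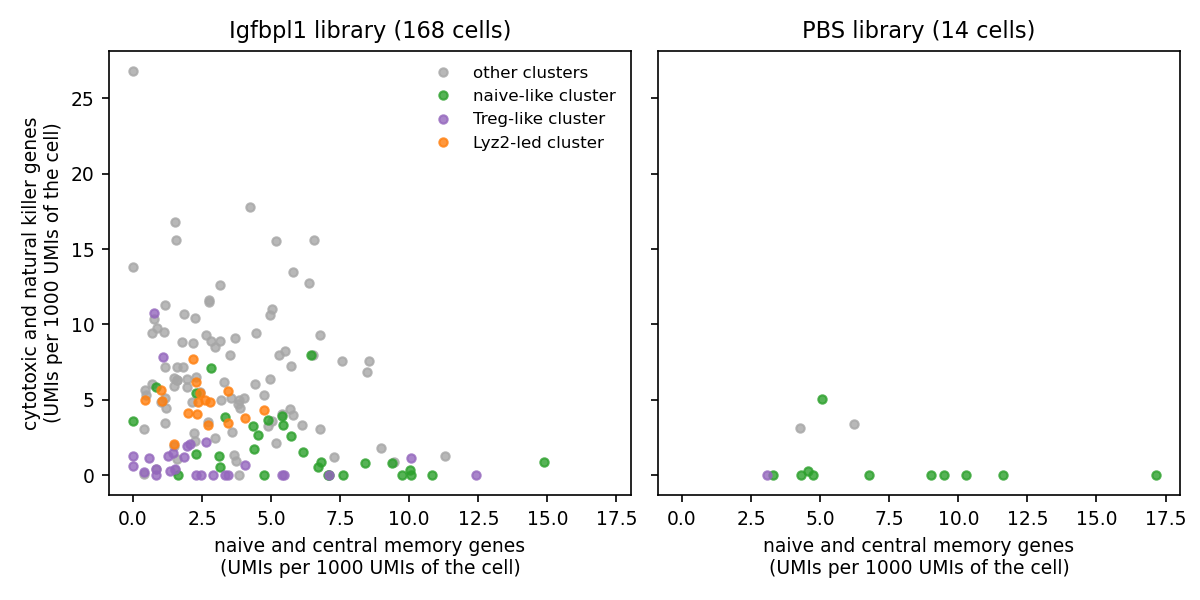
UMIs of the cytotoxic and natural killer list (vertical) against those of the naive and central memory list (horizontal), each per 1000 UMIs of the cell, for the 168 selected cells of the Igfbpl1 library (left) and the 14 of the PBS library (right), with clusters in colour. Of the PBS cells 10 lie at 0 on the vertical axis, and of the Igfbpl1 cells 19.

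Per cell, cytotoxic and natural killer genes gave a median of 4.22 UMIs per 1000 in the Igfbpl1 cells (0 to 26.8), against 0 in the PBS cells (0 to 5.08). Naive and central memory genes gave a median of 2.97 per 1000 in the Igfbpl1 cells (0 to 14.9), against 5.66 in the PBS cells (3.07 to 17.2). The ranges overlapped for both lists. Lineage genes overlapped to different degrees: Cd4 and Foxp3 shared 0 cells, Cd4 and Ifng shared 4 of the 18 and 62 Igfbpl1 cells, and Klrb1c and Ifng shared 20 of the 29 and 62. Gata3, of type 2 cells, was found in 25 Igfbpl1 cells and 1 PBS cell.

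Receptor segments were few, as is usual for reads taken from the 3' end. A beta variable segment (Trbv) was found in 16 Igfbpl1 cells, with 7 segments seen and Trbv3 in 6 cells, Trbv13-2 in 4 and Trbv12-2 in 2, and in 1 PBS cell, which held Trbv12-2. Alpha segments were found in 2 Igfbpl1 cells, Trav16n and Trav3-3, so the segments give no view of clones. A transcript of a gamma or delta chain was found in 53 Igfbpl1 cells, of which 49 also held an alpha-beta constant gene, and 4 held it alone. Trdc was present in 15 cells, and 1 of these also had Trac. Trgv2 was present in 17 cells and Tcrg-V1 in 8. These gamma and delta genes are listed for the Igfbpl1 library only.

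The last comparison sets the selected cells beside CD8 T cells of the Igfbpl1 library, selected by the same rule but for CD8. Of 605 genes measured 2 (0.331%) were called higher in the selected cells and 1 (0.165%) lower, with a median log2 ratio of -0.01. The gene called lower was Cd8b1, which the rule used. Those called higher were Hist1h2ae, a histone of dividing cells with near-identical copies, at 331 CPM in the selected cells and 121 CPM in the CD8 T cells, and Cebpb, a factor abundant in myeloid cells, at 516 and 216 CPM. Microglia-rule cells held 911 CPM of Cebpb. Of Hist1h2ae, 150 UMIs lay in 6 of the 9 cells of the cycling cluster, 43 of them in 1 cell. The comparison of the libraries had called 52 and 26 of 592 genes, but from 14 PBS cells, and these counts were not compared by a test.

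**Figure D5:**
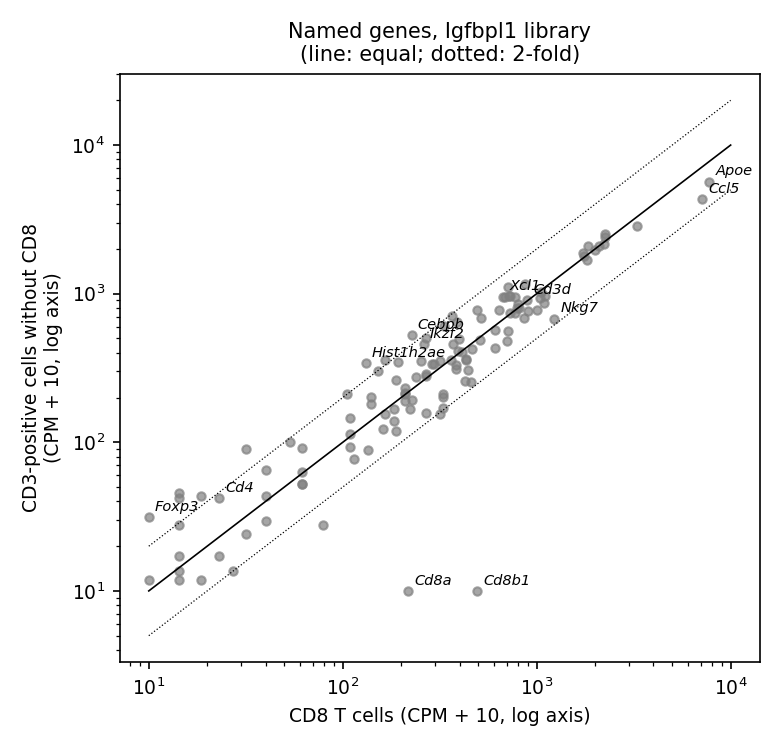
Level of the named genes in the selected cells (vertical) against CD8 T cells (horizontal) of the Igfbpl1 library, in CPM with 10 added on log axes; the line marks equal levels and the dotted lines 2-fold. Most points lie between the dotted lines, and Cd8a and Cd8b1, at 0 in the selected cells by the rule, lie far below.

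Most subset genes lay within 2-fold between the selected cells and CD8 T cells. The naive gene Lef1 was close to level, at 158 CPM in the selected cells and 173 CPM in the CD8 T cells. Ifng had 450 and 359 CPM, and Xcl1 947 and 662 CPM. Ccl5 and Nkg7 were nearer to 2-fold lower, at 4326 and 7115 CPM and at 669 and 1216 CPM, and Themis stood at 160 and 320 CPM. Klrb1c had 80.1 CPM in 29 of 168 selected cells, against 21.6 CPM in 3 of 66 CD8 T cells, and Ikzf2 448 and 251 CPM. Monocyte and macrophage markers summed to 7767 CPM in the selected cells and 9751 CPM in the CD8 T cells, with median myeloid UMIs of 8.496 and 8.69 per 10000.

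Natural killer and gamma-delta T cells of the Igfbpl1 library lay on either side of the selected cells for some genes. Ifng had 450 CPM in the selected cells, against 1167 CPM in natural killer cells and 15.1 CPM in gamma-delta T cells, and Klrd1 had 767 CPM, against 2020 and 187 CPM. Cxcr6 ran the other way, at 112 CPM in the selected cells, 25.7 CPM in natural killer cells and 836 CPM in gamma-delta T cells. Il17a, the cytokine the rule used to set gamma-delta T cells apart, had 1.78 CPM in the selected cells and 1839 CPM in gamma-delta T cells. Cd4 was at 32.0 CPM in the selected cells, 0 in natural killer cells and 10.1 CPM in gamma-delta T cells.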

How the data were processed

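UMI counts per gene and cell were deposited by the authors, 1 table for each library; Cell Ranger 3.1 and the mm10 build are named per the submitters' processing notes. No cell or gene was removed, and the lowest cell held 1001 UMIs. The selected cells and the gene lists were chosen with earlier results of these data known. UMIs were summed over the selected cells of each library, and 50 CPM was added for log2 ratios. Intervals were exact Poisson (levels), conditional binomial (ratios) and Clopper-Pearson (shares). Named were the 12 genes of largest ratio in each direction, the 4 highest and 2 most different genes of each list, 10 in each direction against CD8 T cells, and fixed lineage genes; other genes called within a list, and those behind a count of 5 or fewer, were named after their values were seen. Thinning drew 1000 UMIs per cell. Clustering used Leiden at resolution 0.8 on 15 components of 1000 variable genes with 10 neighbours (scanpy 1.11.5, igraph 0.11.9, scikit-learn 1.9.0). Scrublet called 62 Igfbpl1 and 6 PBS cells doublets, 3 and 0 of them selected cells, and these were kept. The gene ratios, their intervals and the calls were tested on simulated Poisson counts, without clumping of UMIs in cells. The other steps were not tested in this way. Python 3.11.15, numpy 2.4.6, pandas 2.3.3, scipy 1.17.1, anndata 0.12.19 and matplotlib 3.10.9 were used. A few genes are not reported here. The alternatives changed the limits on CD3, depth, level and added CPM, the scaling, the doublet calls and the cells kept.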

Additional observations from a re-analysis of the deposited data

Results flagged for a closer look

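The difference in the share of T cells without CD8 transcripts ran in opposite directions in cells called by sex-linked transcripts. Among cells with only Xist UMIs the Igfbpl1 library minus the PBS library gave 6.52 percentage points (6.92% and 0.4%). Among cells with only Y-linked UMIs it gave -1.25 percentage points (0.179% and 1.43%). The difference between these values was not tested, since each library is a single pool, and the intervals of the Y-only shares overlap. The Y-only share of the Igfbpl1 library rests on 1 cell and the Xist-only share of the PBS library on 1 cell.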

How the results depend on the processing

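The share of selected cells in the Igfbpl1 library was 6.37% with at least 1 CD3 UMI, 4.29% with at least 3, 4.02% after thinning, 3.78% with a receptor UMI and few myeloid UMIs and 0.541% with Cd4. It was 6.92% of Xist-only cells, 0.179% of Y-only cells and 53.0% of cells with at least 2 CD3 UMIs. The PBS share was 0.0948% with Cd4, 0.4% of Xist-only cells and 46.7% of cells with at least 2 CD3 UMIs. Higher genes in Igfbpl1 than in PBS cells numbered 221, 20 and 423 with a minimum of 50 CPM, of 500 CPM and of none, 32 with 200 CPM added and 31 in the naive-like cluster. Lower genes numbered 80, 5 and 80 under those minimums, 8 with 200 CPM added, 51 after thinning and 49 without cells holding Klrb1c, Ncr1 or Klrk1. With cells weighted equally 48 were higher, 42 of them among the 52, and 28 lower, 17 of them among the 26. Thinning, which moved the median log2 ratio of all genes to -0.13, kept 37 of the 52 and 13 of the 26.

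Over 13 alternatives, 38 or 39 of 39 named called genes kept their direction and 25 to 39 stayed past 2-fold. Changes of the minimum level cannot alter a ratio, and another added CPM cannot reverse one. Those alternatives therefore could not turn any gene. Some of the genes were also named for their large ratios in these data, so the counts are a description. The reversed values were those of S1pr1, at 1.48 after thinning, which left the PBS cells 14000 UMIs, and of Lyz2, at -0.0166 in cells with a receptor UMI and few myeloid UMIs. The cause was not tested. Against CD8 T cells, 15 genes were higher with a minimum of 50 CPM, 0 with 500 CPM, 4 with cells weighted equally and 27 in cells with Cd4. Lower were 4 with 50 CPM, 0 with 500 CPM, 2 with 10 CPM added, 2 against cells with at least 2 CD8 UMIs, 23 in cells with Cd4 and 3 with a receptor UMI and few myeloid UMIs. A resolution of 0.4 gave 4 clusters. Of the 47 cells of the Ctla2a-led cluster at most 20 stayed together at resolution 1.2 (9 clusters) and 25 with 10 components (7 clusters), and of the 9 cells of the Ifit1-led cluster 6 stayed together with 10 components. Gene comparisons of the libraries within Xist-only cells and within Cd4 cells were not run, because the PBS library held 1 such selected cell and 5 per library were required. No paired analysis was possible because each group is 1 library. The 14 PBS cells, with 45311 UMIs, limit every comparison of the libraries.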
